A study of Homo sapiens with 8 samples.

Results

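The nuclear pore complex genes described here are 30 genes that encode structural and transport proteins of the pore, chosen by symbol from a list that was drawn up because RANBP2 was high in unstimulated WSB2-knockdown cells. All 30 symbols were found among the 58735 genes of the files, and all 30 passed the filter on low reads. The cells were U2OS, a human osteosarcoma line, carrying either a control shRNA (control cells) or an shRNA against WSB2 (KD cells), a substrate receptor of a ubiquitin ligase. The study's methods describe KD lines as lentivirus-infected cells selected with puromycin, and which of the 2 shRNAs against WSB2 listed in its supplement the sequenced cells carried is not given in the sources used here. Each line was harvested unstimulated or after 5 h of TNF-α, with 2 libraries in each of the 4 groups. The labels do not say whether the 2 libraries of a group came from separate cultures, so the p-values measure only the spread between libraries, which may be technical.

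The nuclear pore is a ring-shaped channel through both membranes of the nuclear envelope, and all regulated traffic of proteins and RNA between nucleus and cytoplasm passes through it. Outer rings built from Y-shaped complexes and an inner ring form the scaffold, transmembrane proteins anchor it, and proteins rich in phenylalanine-glycine repeats (FG nucleoporins) fill the channel and bind transport receptors. Filaments reach into the cytoplasm, where RANBP2 and NUP214 sit, and a basket made of TPR, NUP153 and NUP50 hangs on the nuclear side. NF-κB proteins activated by TNF-α are among the many cargoes of the pore.

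The libraries held between 15601098 and 18677023 reads. WSB2 itself measured 27.7 and 27.997 FPKM (fragments per kilobase of exon, divided by a library size that the authors set) in unstimulated control cells against 8.38 and 8.52 in KD cells, and 24.995 and 25.3 against 9.002 and 9.18 with TNF-α, so both KD groups matched their label. The pair of unstimulated KD libraries stood apart from the other 6 in several measures of the whole library. Mitochondrial reads made up 4.10% and 4.42% of them against 1.11% to 2.03% elsewhere, the read-weighted GC content of exons was 50.0% and 49.5% against 52.6% to 53.3%, and 26225 and 26397 genes had a value against 22072 to 22957. MALAT1 and NEAT1, RNAs that stay in the nucleus, measured 15.02 and 17.9 FPKM and 7.86 and 6.97 FPKM there, against 1.35 to 2.76 and 0.931 to 1.802 in the other libraries. The part of these differences in any result below was not tested. Of the markers of bone and mesenchymal cells, VIM, SPARC and COL1A1 were at 145.8 FPKM or more in every library and COL1A2 at 0.0934 or less, with RUNX2, ALPL and SPP1 between 0.67 and 5.41. Of the epithelial markers KRT8 and KRT18 were high (74.26 FPKM or more) and EPCAM, CDH1 and KRT19 stayed at 0.482 or less, and the leukocyte markers reported here, PTPRC, CD3E, CD14 and ITGAM, were at 0.467 or less. ITGAM, the one of these that passed the filter on low reads, was called higher with TNF-α in control cells by limma (0.0821 and 0.0406 FPKM without and 0.376 and 0.342 with TNF-α, log2 fold change 0.36, adjusted p = 0.036).

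The knockdown without TNF-α is the contrast for which the gene list was drawn up, so its values are given as a description. Nothing is read from the counts of pore genes that passed there. RANBP2, TPR and AHCTF1 were several times higher in unstimulated KD cells than in any other group, the remaining basket genes and most genes of low GC content were higher by less, and AAAS, SEC13, RAE1, NUP85 and NUP93 were lower. Differences are given as log2 fold changes on log2(FPKM + 1), a scale that understates the change of low genes. The libraries are bulk, so a change in some of the cells and a smaller change in all of them cannot be told apart.

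At the cytoplasmic face, RANBP2 (ENSG00000153201, chr2:108719481-108785811 on GRCh38, plus strand), which forms the cytoplasmic filaments, binds Ran and attaches SUMO, measured 2.49 and 4.17 FPKM in unstimulated control cells. In unstimulated KD cells it measured 23.0 and 26.7 FPKM, in control cells with TNF-α 5.79 and 5.47, and in KD cells with TNF-α 5.09 and 4.52. Both unstimulated KD libraries lay above all other 6, and both unstimulated control libraries lay below them. Among the 30 genes RANBP2 ranked 29th and 28th from the top in the unstimulated control libraries, 2nd in both unstimulated KD libraries, and between 24th and 28th with TNF-α. Its difference between KD and control cells without TNF-α was 2.60 ± 0.18 (SE, n = 2 libraries a group), the 5th highest value of the 16520 genes tested that have a GC value. AAAS (chr12:53307456-53324864), which encodes the WD-repeat protein ALADIN, showed the opposite order. It measured 30.3 and 26.6 FPKM in unstimulated control cells, 15.02 and 14.2 in unstimulated KD cells, 27.1 and 29.4 in control cells with TNF-α, and 27.7 and 27.1 in KD cells with TNF-α. Only the unstimulated KD libraries departed from a common level, and the log2 fold change was -0.91 ± 0.09. RAE1, an mRNA export factor that binds NUP98, was also lower (-0.71). NUP214, NUP88 and GLE1, which work together in the last step of mRNA export, differed by between -0.14 and 0.17.

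All 3 basket genes were higher in unstimulated KD cells. TPR (chr1:186311652-186375693, minus strand), whose coiled coils form the basket filaments, followed RANBP2 closely. It measured 2.67 and 4.46 FPKM in unstimulated control cells, 21.6 and 25.5 in unstimulated KD cells, 5.98 and 5.47 in control cells with TNF-α, and 4.52 and 4.82 in KD cells with TNF-α. The unstimulated KD libraries again lay above all others without overlap, by a log2 fold change of 2.45 ± 0.18. NUP153, the FG nucleoporin of the basket, measured 8.63 and 13.9 FPKM in unstimulated control cells, 21.1 and 24.5 in unstimulated KD cells, 19.6 and 17.8 in control cells with TNF-α, and 19.3 in both KD libraries with TNF-α. For NUP153 the unstimulated control libraries were thus the low group, and the TNF-α libraries came close to the unstimulated KD libraries. NUP50, which helps to release importin cargo, had a log2 fold change of 1.18 and was at 18.8 FPKM or more in unstimulated KD cells against 10.6 or less in every other library. Together the basket genes made up 14.9% and 15.7% of the summed FPKM of the 30 genes in unstimulated KD cells, against 5.15% and 6.998% in unstimulated control cells and 8.04% to 8.60% with TNF-α.

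In the outer ring the 9 genes ran from AHCTF1 at the top to SEC13 at the bottom. AHCTF1 (chr1:246839098-246931967, minus strand) encodes ELYS, which binds chromatin and starts pore assembly after mitosis. It measured 1.33 and 2.66 FPKM in unstimulated control cells, 9.84 and 11.3 in unstimulated KD cells, 3.37 and 2.81 in control cells with TNF-α, and 2.91 and 2.999 in KD cells with TNF-α. It ranked last of the 30 genes in all 6 libraries other than the unstimulated KD pair, where it ranked 22nd and 21st, and its log2 fold change was 1.98 ± 0.20. SEC13, a subunit shared with the COPII coat of secretory vesicles, measured 40.5 and 31.5 FPKM in unstimulated control cells, 20.4 and 18.9 in unstimulated KD cells, 36.3 and 36.8 in control cells with TNF-α, and 34.8 and 32.9 in KD cells with TNF-α. Its log2 fold change was -0.83 ± 0.12, and NUP85, another subunit of the Y complex, stood at -0.69. The other scaffold genes NUP107, NUP160 and NUP133 stood between 0.62 and 0.73, NUP43 at 0.39, SEH1L at 0.23 and NUP37 at -0.18, so subunits of 1 complex did not share a direction.

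The inner ring and the central channel were split in the same way. NUP155, an inner ring scaffold, measured 5.54 and 8.05 FPKM in unstimulated control cells, 13.5 and 15.4 in unstimulated KD cells, 7.44 and 6.92 in control cells with TNF-α, and 7.18 and 7.02 in KD cells with TNF-α, with a log2 fold change of 1.00 ± 0.15. NUP93, which holds the inner ring together and anchors the channel proteins, measured 18.5 and 18.1 FPKM in unstimulated control cells, 10.99 and 11.9 in unstimulated KD cells, 19.5 and 18.5 in control cells with TNF-α, and 18.1 and 18.3 in KD cells with TNF-α. NUP93 was thus level in 6 libraries and lower in the unstimulated KD pair, by -0.64 ± 0.07. Among the other inner ring genes NUP205 and NUP35 stood at 0.63 and 0.59 and NUP188 at -0.31. The proteins of NUP54, NUP58 and NUP62 form a trimer in the channel, and their messages did not share a direction. NUP58 measured 3.56 and 5.41 FPKM in unstimulated control cells, 8.31 and 9.35 in unstimulated KD cells, 5.57 and 5.07 in control cells with TNF-α, and 5.79 and 5.68 in KD cells with TNF-α. NUP62 measured 27.8 and 27.6 FPKM in unstimulated control cells, 21.7 and 21.8 in unstimulated KD cells, 34.2 in both control libraries with TNF-α, and 38.0 and 36.5 in KD cells with TNF-α. The log2 fold changes were 0.86 for NUP58, 0.84 for NUP54 and -0.33 for NUP62, and NUP98, whose gene encodes both a channel protein and the outer ring subunit Nup96, stood at 0.01.

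Of the transmembrane genes, NDC1 was higher and NUP210 lower. NDC1, an anchor of the pore in the envelope, measured 8.96 and 11.1 FPKM in unstimulated control cells, 17.2 and 18.8 in unstimulated KD cells, 10.6 and 8.37 in control cells with TNF-α, and 9.66 and 10.9 in KD cells with TNF-α. NUP210, which lies mostly in the lumen of the envelope, measured 4.802 and 6.54 FPKM in unstimulated control cells, 3.48 and 4.51 in unstimulated KD cells, 6.06 and 6.11 in control cells with TNF-α, and 6.03 and 5.42 in KD cells with TNF-α. The log2 fold changes were 0.79 ± 0.14 and -0.41 ± 0.15. POM121 stood at -0.24 with overlapping groups, because its unstimulated control libraries lay apart from each other at 8.17 and 13.5 FPKM.

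**Figure D1:**
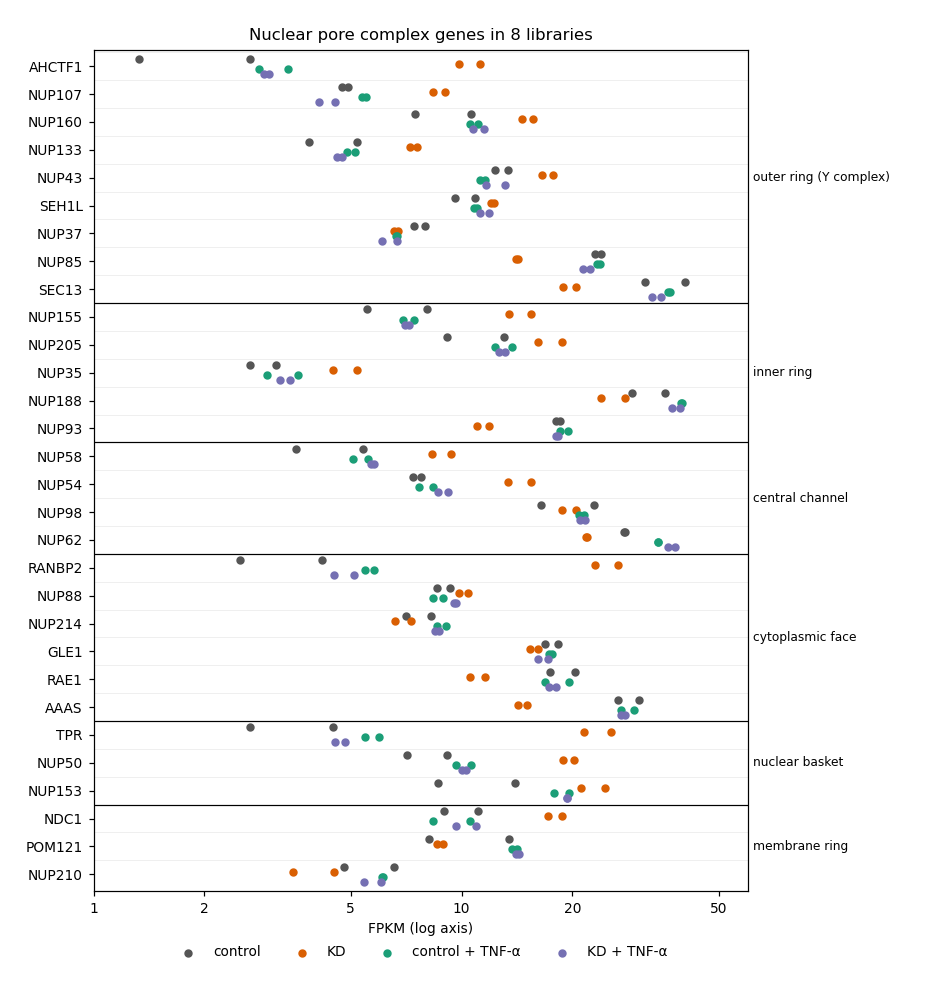
FPKM of the 30 nuclear pore complex genes in the 8 libraries on a log axis, grouped by place in the pore, with 1 point a library and 1 colour a group (2 libraries each). In RANBP2, TPR and AHCTF1 the unstimulated KD libraries stand far to the right of all others, as at 23.0 and 26.7 FPKM for RANBP2, and in AAAS and SEC13 they stand to the left.

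Over the 30 genes the median difference between KD and control cells without TNF-α was 0.31, beside -0.0010 over all 16528 genes tested. By limma at an adjusted p under 0.05, 24 of the 30 passed, 16 higher and 8 lower, where 60.1% of all genes tested passed, 29.8% higher and 30.2% lower; nothing is read from this count, since the list was drawn up on this contrast. The other 6, NUP98, NUP214, GLE1, NUP37, NUP88 and POM121, stood between -0.24 and 0.17. The summed FPKM of the 30 genes was 357.8 and 393.8 in unstimulated control cells, 411.9 and 448.1 in unstimulated KD cells, and 407.9 to 420.9 in the 4 libraries with TNF-α. On the authors' scale the sum thus differed far less than its parts, and without RANBP2 it was 388.9 and 421.5 in unstimulated KD cells. That scale divides by library sizes 1.21 times the total reads in the unstimulated KD libraries and 0.925 to 1.03 times elsewhere. The sum depends on these sizes, and it was not computed on total reads. With libraries scaled to their total reads in place of the authors' factors, the median over all genes shifted to 0.13 and that of the 30 genes to 0.57. NUP214, GLE1, NUP37 and POM121 then changed sign to values between 0.01 and 0.13. In that fit 17 of the 30 passed as higher and 5 as lower, where 39.4% and 20.9% of all genes tested did. Nothing is read from this count either.

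The differences were also set against the base composition of the genes. The exons of the 30 genes had a GC content between 36.5% (NUP58) and 58.0% (NUP210), with a median of 44.2% beside 48.5% over all genes tested, and their median coding length was 2570 bases beside 1269. Of the 11 genes under 42% GC, 10 had a log2 fold change above 0 (median 0.84) and NUP37 was the exception. The 9 genes between 42% and 48% had a median of 0.39, with NUP93 as the one below 0. All 10 genes at 48% or more were below 0, with a median of -0.37. Across the 30 genes Spearman's rho between exon GC content and log2 fold change was -0.77, and -0.76 without RANBP2. With the GC content of coding exons it was -0.80, and with coding length 0.38. Over all genes tested with a GC value (n = 16520) rho with GC content was -0.69, so the pore genes lay on a slope that ran through the whole transcriptome. These correlations describe genes that share the same 4 libraries, and genes are not independent replicates. The GC bounds were chosen after the values were seen.

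Short stretches of coding sequence make the contrast visible. Each of the following is 90 bases from the middle of the longest coding exon, read from GENCODE 29 transcripts on GRCh38, with G and C in capitals; the first 3 genes had the highest log2 fold changes between KD and control cells without TNF-α among the 30, and the last pair the lowest.
RANBP2, chr2:108765768-108765857, plus strand, exon 20: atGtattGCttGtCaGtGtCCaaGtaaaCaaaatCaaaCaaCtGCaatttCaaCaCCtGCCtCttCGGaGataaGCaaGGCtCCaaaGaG
TPR, chr1:186333214-186333303, minus strand, exon 37: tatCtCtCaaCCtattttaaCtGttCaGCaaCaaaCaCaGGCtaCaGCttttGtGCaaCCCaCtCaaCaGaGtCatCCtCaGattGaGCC
AHCTF1, chr1:246850484-246850573, minus strand, exon 33: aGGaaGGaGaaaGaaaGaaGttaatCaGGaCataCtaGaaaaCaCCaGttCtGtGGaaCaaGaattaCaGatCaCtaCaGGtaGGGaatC
AAAS, chr12:53307558-53307647, minus strand, exon 16: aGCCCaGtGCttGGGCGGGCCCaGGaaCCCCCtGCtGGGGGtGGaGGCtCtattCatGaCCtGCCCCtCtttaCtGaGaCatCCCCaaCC
SEC13, chr3:10312610-10312699, minus strand, exon 5: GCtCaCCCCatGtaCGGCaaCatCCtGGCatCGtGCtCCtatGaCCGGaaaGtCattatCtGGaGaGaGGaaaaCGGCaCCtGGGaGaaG
Of the 90 bases, 37 are G or C in RANBP2, 39 in TPR and 35 in AHCTF1, against 57 in AAAS and 49 in SEC13. The exon that holds the RANBP2 stretch has 5152 coding bases, more than the whole coding sequence of 22 of the 30 genes.

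**Figure D2:**
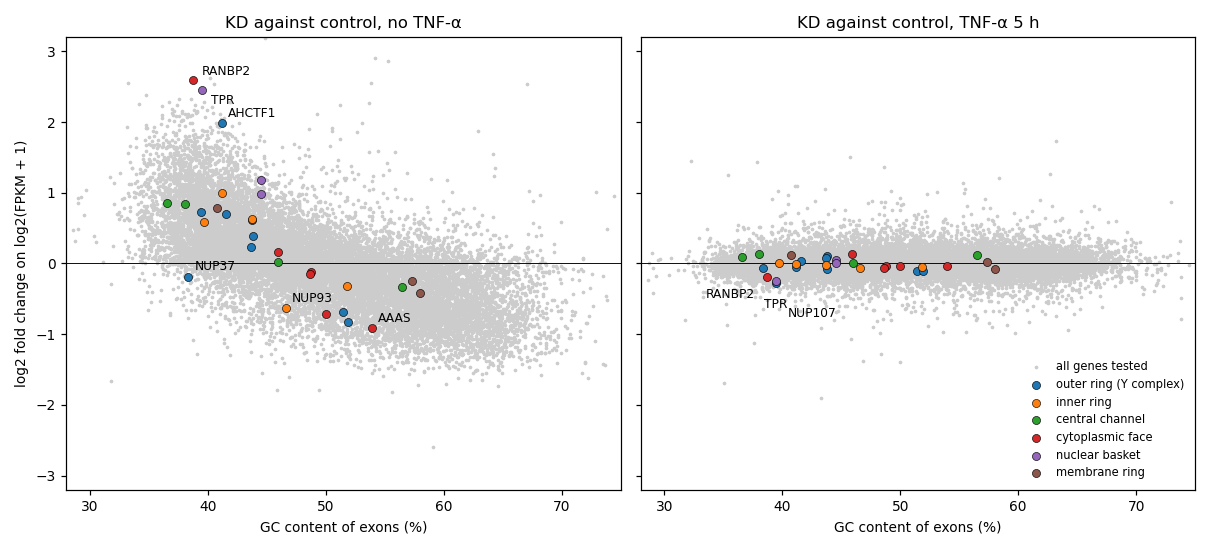
Log2 difference between KD and control on log2(FPKM + 1) by GC content of exons in percent, without TNF-α (left) and with TNF-α (right). Grey points are all genes tested, of which 10 lie outside the axes in each panel, and coloured points are the 30 pore genes by place in the pore. On the left the pore genes run down from RANBP2 at 2.60 to AAAS at -0.91 along the slope of the grey points, and on the right they lie between -0.28 and 0.14.

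Some pore genes stood at the edge of genes of like GC content, which is given as a description, since the list was drawn up on this contrast. Genes of like GC content were not matched on length or on expression level, and the log2(FPKM + 1) scale understates the change of low genes. When all genes tested were cut into 10 bins of equal size by GC content, the lowest bin had a median log2 fold change of 0.72 and the highest -0.64. RANBP2 was higher than 99.9% of the genes in its bin, TPR than 99.8%, AHCTF1 than 99.1%, NUP50 than 98.2% and NUP153 than 96.0%. At the other end NUP37 was higher than 2.36% of its bin, NUP93 than 8.23%, AAAS than 8.47% and RAE1 than 9.44%. NUP58, NUP54, NUP35, NUP88, NUP62 and NUP210 lay between 48.4% and 60.1% of theirs, near the middle.

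After a spline correction of each library for GC content and exon length, the median of the 30 genes was 0.02 in place of 0.31. RANBP2 stood at 1.802, TPR at 1.69, AHCTF1 at 1.36, NUP50 at 0.84 and NUP153 at 0.73, so these genes kept most of their difference. NUP58 and NUP107 went from 0.86 and 0.73 to -0.01 and 0.03, and NUP160 and NUP155 from 0.70 and 1.00 to 0.12 and 0.39. NUP37 and NUP93 moved away from 0, to -0.73 and -0.86. NUP62 went from -0.33 to 0.00, while AAAS, SEC13 and RAE1 kept values of -0.57, -0.65 and -0.63. NUP98 and SEH1L changed sign to -0.24 and -0.21. In this fit 8 of the 30 genes passed as higher and 8 as lower, where 23.7% and 28.1% of all genes did. Nothing is read from this count, since the list was drawn up on this contrast.

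**Figure D3:**
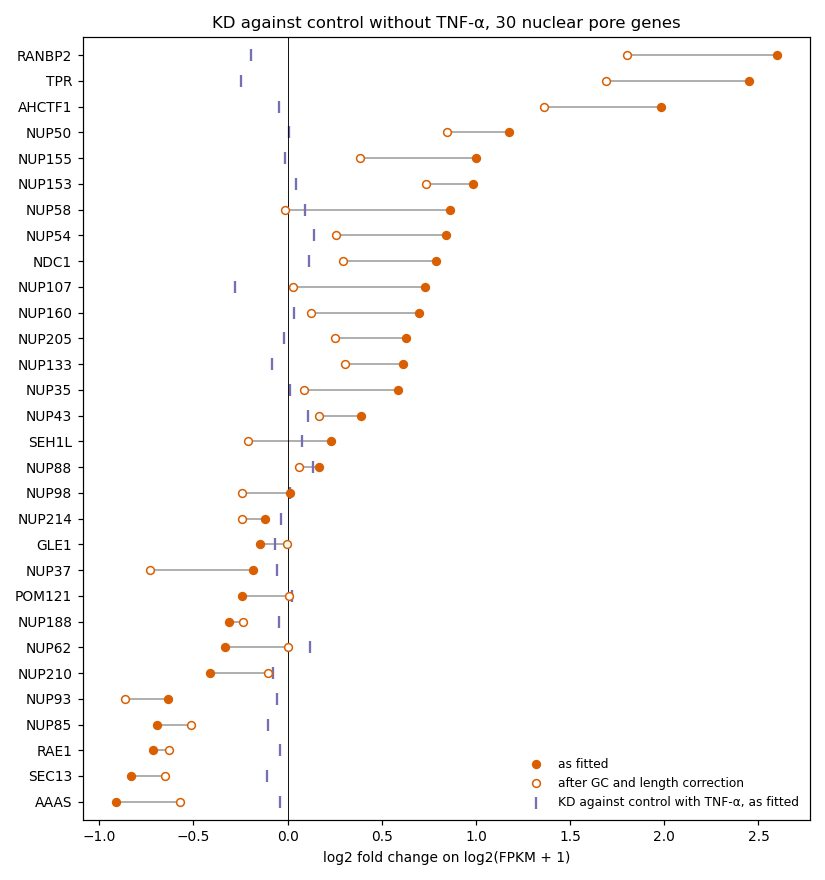
Log2 difference between KD and control without TNF-α for each of the 30 pore genes, as fitted (filled) and after correction for GC content and exon length (open), with the value under TNF-α as a bar. RANBP2, TPR and AHCTF1 remain far to the right after correction (1.802, 1.69 and 1.36), NUP58 and NUP107 move to near 0, and with TNF-α every gene lies close to 0.

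RANBP2 has close relatives in the genome, the RGPD genes, partial duplicates of it whose reads can be confused with its own. Of the 150-base windows of the RANBP2 transcript, 6.59% occur letter for letter in an RGPD gene. At the best offset without gaps, the longest stretch of high identity to each of the 7 RGPD genes covers 2200 coding bases at 98.1% to 98.5% identity. Likeness outside that stretch was not measured, and the RGPD coding sequences have 5268 to 5295 bases. The following 120 bases of RANBP2 and RGPD8, the relative with the highest mean FPKM, are shown to make this plain, with the 3 bases that differ in capitals.
RANBP2, coding bases 6669 to 6788: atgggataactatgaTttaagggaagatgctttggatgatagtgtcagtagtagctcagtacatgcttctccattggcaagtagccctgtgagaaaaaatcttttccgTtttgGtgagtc
RGPD8, coding bases 3741 to 3860: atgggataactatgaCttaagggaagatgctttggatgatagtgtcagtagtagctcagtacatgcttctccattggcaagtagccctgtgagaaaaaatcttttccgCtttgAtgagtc
RGPD8 measured 0.0969 and 0.0755 FPKM in unstimulated control cells, 0.689 and 0.459 in unstimulated KD cells, 0.173 and 0.160 in control cells with TNF-α, and 0.126 and 0.0827 in KD cells with TNF-α. It was thus higher in the same libraries as RANBP2 at a level far below it, and no other RGPD gene was above 0.256 FPKM in any library; reads shared between copies may be part of these low values. POM121 shares 30.7% of its windows with POM121C and POM121B, and POM121C, at 12.8 and 18.5 FPKM in unstimulated control cells and 12.1 and 12.8 in unstimulated KD cells, showed the pattern of POM121 itself. AHCTF1 shares 20.8% with the pseudogene AHCTF1P1, and NUP62 7.73% with the overlapping gene IL4I1 and AC011452.1. NUP133, NUP188 and NUP50 share between 1.16% and 3.58%, and the other 23 genes none. The values of POM121 and AHCTF1 are therefore uncertain to the extent that counting split such reads.

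The knockdown with TNF-α compares 4 libraries that took no part in choosing the list, and no pore gene passed the test there. The spread behind its p-values and intervals was pooled over all 8 libraries, so the unstimulated libraries enter them. By limma 0 of the 30 genes had an adjusted p under 0.05, where 0.115% of all genes tested passed, and 1 had an unadjusted p under 0.05, where 8.16% of all genes did. The voom fit of the recovered reads, which called 0.315% of all genes, also called 0 of the 30, with 1 at an unadjusted p under 0.05. A limma fit of only the 4 libraries compared called 0 of the 30, where it called 24 of 16528 genes higher and 15 lower. In that fit 3 of the 30 had an unadjusted p under 0.05, where 2356 of all genes did, and the smallest adjusted p was 0.23. The median log2 fold change of the 30 genes was -0.03, beside -0.00015 over all genes. RANBP2, at 5.09 and 4.52 FPKM in KD cells against 5.79 and 5.47 in control cells, differed by -0.19 (95% interval -0.60 to 0.22, adjusted p = 0.90). TPR differed by -0.25 (-0.66 to 0.17, adjusted p = 0.84) and AHCTF1 by -0.05 (-0.51 to 0.42, adjusted p = 0.996). The largest difference was that of NUP107, a scaffold gene of the outer ring, at 4.09 and 4.52 FPKM in KD cells against 5.50 and 5.37 in control cells. Its log2 fold change was -0.28 (95% interval -0.49 to -0.06, adjusted p = 0.45), and it was the gene with an unadjusted p under 0.05 by limma over all 8 libraries. At the other end NUP54 and NUP88 stood at 0.14 each. The libraries of the groups did not overlap in 16 of the 30 genes, 6 higher and 10 lower in KD cells, where 46.2% of all genes tested did not overlap. Over the 30 genes the 95% intervals ran from -0.66 to 0.48. Spearman's rho between exon GC content and log2 fold change was -0.09 across the pore genes and 0.04 across all genes tested.

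TNF-α in control cells was tested as a further comparison, and it shares the unstimulated control libraries with the contrast behind the list. No pore gene passed here either, with 0 of the 30 at an adjusted p under 0.05 by limma, where 4.24% of all genes tested passed. An unadjusted p under 0.05 was reached by 7 genes, where 17.5% of all genes did, and voom on recovered reads called NUP153 and RANBP2, where it called 4.85% of all genes. The median log2 fold change was 0.12, beside 0.0085 over all genes, and 23 of the 30 genes were above 0. The groups did not overlap in 13 of the 30 genes, 11 higher and 2 lower with TNF-α, where 42.5% of all genes did not overlap. The largest difference was that of NUP153 at 0.72 (95% interval 0.28 to 1.15, adjusted p = 0.087), followed by RANBP2 at 0.64 (0.23 to 1.05, adjusted p = 0.10), TPR at 0.59 (0.17 to 1.00, adjusted p = 0.14) and AHCTF1 at 0.48 (0.02 to 0.95, adjusted p = 0.27). NUP62, whose libraries agreed closely within each group, had the smallest adjusted p, 0.055, at 0.29 (0.14 to 0.45). At the low end NUP37 and NUP43 stood at -0.18 and -0.16.

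These differences rested on which unstimulated control library they were set against. Library 2 exceeded library 1 by 0.65 for AHCTF1, 0.63 for NUP153, 0.57 for both TPR and RANBP2 and 0.66 for POM121 on log2(FPKM + 1), while SEC13, RAE1 and AAAS were lower in library 2 by 0.35, 0.21 and 0.18. Across the 30 genes Spearman's rho between this gap and coding length was 0.67, and across all genes tested with a coding length (n = 13507) it was 0.46. The TNF-α difference in control cells went with coding length as well, with a rho of 0.63 across the pore genes and 0.30 across all genes, and both measures contain the same pair of control libraries. Without unstimulated control library 1, 1 pore gene (NUP62) passed, where 4.4% of all genes did, and NUP153, RANBP2 and TPR stood at 0.40, 0.36 and 0.30. Without library 2, 12 of the 30 passed, all of them higher, where 12.9% of all genes passed and 8.66% passed as higher, and the same 3 genes stood at 1.03, 0.92 and 0.87. After correction for GC content and exon length, NUP153 (0.70, adjusted p = 0.046) and RANBP2 (0.56, adjusted p = 0.039) passed, where 5.52% of all genes did.

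**Figure D4:**
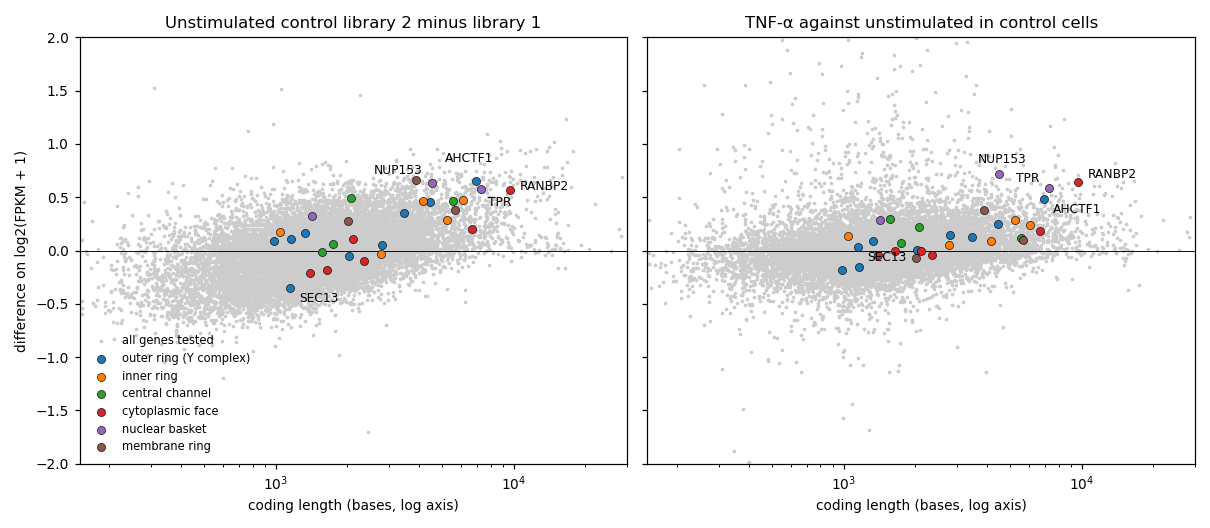
Difference between both unstimulated control libraries (left) and of TNF-α against unstimulated control cells (right), on log2(FPKM + 1), by coding length in bases on a log axis. Grey points are genes tested with a coding length, of which 14 lie outside the axes on the left and 42 on the right, and coloured points are the 30 pore genes. RANBP2, TPR, AHCTF1 and NUP153 are at the upper right in both panels, at 0.57 to 0.65 on the left and 0.48 to 0.72 on the right.

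TNF-α in KD cells is given as a description, since it shares the unstimulated KD libraries with the contrast behind the list. RANBP2, TPR and AHCTF1 differed by -2.15, -2.11 and -1.54 with TNF-α, AAAS by 0.86 and NUP62 by 0.75. Of the 30 genes 24 passed, 10 higher and 14 lower, where 62.5% of all genes tested passed, 31.1% higher and 31.4% lower. For the interaction of knockdown and TNF-α 20 of the 30 passed, where 46.1% of all genes did, with a value of -2.79 for RANBP2 and 0.87 for AAAS. Nothing is read from either count. The differences between KD and control cells spanned -0.91 to 2.60 over the 30 genes without TNF-α and -0.28 to 0.14 with it.

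Promoter sequences were looked up because many of the pore genes differed in the same unstimulated KD libraries, some higher and some lower, and because TNF-α acts through κB sites. The RefSeq table (GRCh38.p14) held a promoter, 250 bases before to 50 bases after the start, for 27 of the 30 genes. The κB core GGANTTTCC was found on either strand in 0 of the 27, where 1.64% of 35116 promoters of the same length held it. At so low a share a count of 0 is likely for any 27 promoters, so nothing is read from it. The letters CCGGAAG, a strict form of the site bound by ETS factors, occurred in 12 of the 27 (44.4%), where 10.3% of all promoters held them. Looser forms of that site were not counted. Those 12 included NUP107, NUP54, NUP58 and NUP50 of the higher genes and SEC13 of the lower ones, and RANBP2 and TPR were not among them, while AHCTF1, GLE1 and NUP43 had no promoter in the table. CCAAT was present in 10 (37.0%, against 34.6% of all promoters) and GCGCANGCG, the NRF1 core, in 4 (14.8%, against 7.52%). A match describes letters only, and the windows of 300 bases leave distant elements out. The promoters of RANBP2 and TPR are printed as those of the genes with the highest log2 fold changes without TNF-α, with matches to any of the 4 motifs in capitals; RANBP2 has none, and TPR has CCAAT on the reverse strand at 2 places.
RANBP2, chr2:108719232-108719531, plus strand: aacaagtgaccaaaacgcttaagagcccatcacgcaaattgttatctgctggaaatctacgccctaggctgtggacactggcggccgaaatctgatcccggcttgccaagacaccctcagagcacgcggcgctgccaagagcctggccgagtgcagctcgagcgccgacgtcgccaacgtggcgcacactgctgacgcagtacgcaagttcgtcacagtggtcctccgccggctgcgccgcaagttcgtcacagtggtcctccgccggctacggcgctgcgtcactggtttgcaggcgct
TPR, chr1:186375204-186375503, minus strand: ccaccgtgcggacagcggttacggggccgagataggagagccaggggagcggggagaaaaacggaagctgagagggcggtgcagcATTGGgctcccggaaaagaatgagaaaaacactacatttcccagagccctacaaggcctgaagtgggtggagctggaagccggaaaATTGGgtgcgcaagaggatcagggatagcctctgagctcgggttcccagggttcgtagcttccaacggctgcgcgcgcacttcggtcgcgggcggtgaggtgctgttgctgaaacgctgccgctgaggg
The promoters themselves were GC-rich in RANBP2 (62%) and TPR (61.3%) as in AAAS (57.7%), so the low GC content of the RANBP2 and TPR exons did not extend to their promoters. The median promoter GC content of the 27 genes was 63.7%, beside 58.7% over all promoters, and the median count of the letters CG was 27 beside 14. CCGGAAG and GCGCANGCG both hold CG, and the motif shares were not set against promoters of like composition.

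The partners of the pore in transport were split along similar lines without TNF-α, again as a description. Over all genes tested 29.8% were called higher and 30.2% lower there, which is the background of each count that follows. Of the 18 importins, receptors that carry cargo inwards, 10 were called higher and 2 lower, from IPO7 at 1.51 to IPO13 at -0.59 (median 0.51). Of the 7 exportins 4 were higher and 1 lower, from CSE1L, which returns importin-α to the cytoplasm, at 1.48 to XPO6 at -0.26 (median 1.02). CSE1L measured 33.1 and 37.1 FPKM in unstimulated control cells, 92.9 and 107.1 in unstimulated KD cells, and 31.7 to 37.1 with TNF-α. All 7 genes of the Ran cycle, which gives transport its direction, were below 0 and 6 were called lower, from RANGAP1, the GTPase activator that RANBP2 holds at the pore, at -1.02 to RANBP3 at -0.55. RANGAP1 measured 112 and 94.8 FPKM in unstimulated control cells, 52.5 and 48.5 in unstimulated KD cells, 136 and 142 in control cells with TNF-α, and 141 and 140.2 in KD cells with TNF-α. RANBP2 and RANGAP1, partners at the cytoplasmic filaments, thus stood at opposite ends, with exon GC contents of 38.7% and 57.5%.

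The mRNA export genes ran from THOC2 at 1.56 to ALYREF at -1.27, with 5 called higher and 7 lower of 18 tested, beside 29.8% and 30.2% of all genes. Lamina and envelope genes ran from SYNE2, a giant protein that links the nucleus to the cytoskeleton, at 1.53 to BANF1, which ties chromatin to the envelope, at -1.13, with 6 higher and 7 lower of 16. Of 8 SUMO pathway genes 3 were higher and 4 lower, from the protease SENP1 at 1.13 to SAE1, a subunit of the SUMO-activating enzyme, at -0.81. The mRNA export, lamina and envelope, and SUMO lists, like all genes tested, were called in both directions. The Ran cycle list had 0 called higher and 6 lower. In both tested comparisons, KD with TNF-α and TNF-α in control cells, 0 of the 18 importins, 7 exportins, 7 Ran cycle genes, 18 mRNA export genes, 16 lamina and envelope genes and 8 SUMO genes passed by limma, where 0.115% and 4.24% of all genes did. At an unadjusted p under 0.05 the counts with TNF-α were 0, 0, 0, 1, 1 and 0 in that order, where 8.16% of all genes reached it. For TNF-α in control cells they were 3, 0, 1, 2, 0 and 1, where 17.5% did.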

How the data were processed

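Total RNA of U2OS cells was sequenced by Novogene (Illumina kits, NovaSeq, per the study's methods). The submitters' processing notes list CASAVA 1.8, fastp, HISAT2 2.0.5, featureCounts 1.5.0-p3, DESeq2 1.20.0 and the builds GRCh38 and hg38. The authors' methods name edgeR for differential expression. The strand used in counting is not given in the sources used here. The authors deposited FPKM values for 58735 genes, all of which matched GENCODE 29, and no columns of comparisons. Times gene length and a library constant, 100% of the values are whole reads (tolerance 0.05). The same constants give the library sizes the authors divided by, which exceed the totals 1.21 times in the unstimulated KD libraries and are 0.925 to 1.03 times the totals elsewhere.

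Differences were fitted to log2(FPKM + 1) with limma 3.58.1 in R 4.3.3, with a mean for each of the 4 groups over all 8 libraries (4 residual degrees of freedom) and a variance trend. A gene entered the fit if 2 or more libraries had 10 or more reads, scaled to the median depth, and if all libraries together had 15 or more (16528 genes). The call was an adjusted p (Benjamini-Hochberg, over all these genes) under 0.05. FPKM values are not counts, so the count test of the study's methods was not run, and voom on recovered reads served as an alternative. The 30 pore genes had between 161 and 6330 reads a library. The fit was tested on simulated data in which 200 genes were changed in a group and no trend with GC content or length was put in. That test does not cover a contrast in which most genes differ along a GC slope. GC content and lengths were computed from GENCODE 29 exons on GRCh38 with Python 3 scripts, and GC content was available for 16520 of the genes tested.

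The pore genes, the lists of transport, envelope and marker genes and the comparisons were chosen with earlier results of these data known. Values in all libraries are given for RANBP2 and for the genes with the largest and smallest difference without TNF-α in each part of the pore, and each list is named by its ends. A further marker on the leukocyte list is not reported here. Alternatives were other pseudocounts, scalings, filters and sample sets, each library left out, a replicate block, voom, and a GC and length correction.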

Additional observations from a re-analysis of the deposited data

Results flagged for a closer look

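In 5 pore genes both KD libraries lay on one side of both control libraries without TNF-α and on the other side with TNF-α. This difference in direction was not tested, since the contrast without TNF-α is the one behind the list. With TNF-α alone, the libraries of the groups did not overlap in 46.2% of all genes tested. The share of all genes with such a change of side was not computed, so nothing is read from the count of 5. The log2 fold change of RANBP2 was 2.60 without and -0.19 with TNF-α (difference -2.79), that of TPR 2.45 and -0.25 (-2.69), that of NUP107 0.73 and -0.28 (-1.01) and that of NUP133 0.62 and -0.08 (-0.70). NUP62 ran the opposite way, with -0.33 without and 0.12 with TNF-α (0.45). The values with TNF-α did not pass the test in any of the 5. Groups of 2 libraries are too small to look for outlying samples.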

How the results depend on the processing

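The count of pore genes called for KD against control with TNF-α was 0 under every alternative. For TNF-α in control cells (0 in the fit reported) it was 2 by voom on recovered reads, 2 after GC and length correction and 1 with a replicate block and that correction, and 0 to 12 with each library left out (12 without unstimulated control library 2, 1 without library 1). Sets with 1 library in a group assume that it varies like the others.

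For KD against control without TNF-α, the median log2 fold change was 0.27 to 0.38 with each library left out. The median of the 30 genes went from 0.31 to 0.57 with total-read scaling and to 0.019 after GC and length correction, with or without the block. For TNF-α in KD cells the median went from -0.15 to -0.24 (upper-quartile factors), -0.50 (total reads) and 0.054 (GC and length correction, with or without the block). It was -0.22 to -0.086 with each library left out. For the interaction the median went from -0.22 to -0.50 with total reads, and the count from 20 to 12 after GC and length correction, 11 with the block added, and 13 to 21 with each library left out. The rank correlation with GC content was -0.77, and -0.76 without RANBP2 and -0.80 with coding exons.

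Some small values changed sign. After GC and length correction, with or without the block, NUP58 went to -0.011 and NUP62 to 0.0047 without TNF-α, and NUP58 to 0.27 for TNF-α in KD cells and 0.11 for the interaction. For TNF-α in control cells SEC13 went to -0.038 (upper-quartile factors), -0.046 (total reads) and -0.022 (corrected), NUP93 to -0.014, -0.021 and -0.017, and NUP210 to -0.015 (corrected). With each library left out, KD against control with TNF-α ranged from -0.14 to 0.054 for AHCTF1, -0.060 to 0.032 for NUP155, -0.095 to 0.016 for AAAS, -0.021 to 0.11 for NUP153 and -0.037 to 0.27 for NDC1. TNF-α in control cells then ranged from -0.15 to 0.21 for SEC13, -0.15 to 0.32 for NUP155, -0.022 to 0.47 for NUP58, -0.10 to 0.083 for AAAS, -0.23 to 0.078 for NDC1 and -0.089 to 0.29 for NUP210. The cause of these changes was not tested.

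Same-numbered libraries did not deviate together in general, with correlations between groups of 0.35 at most (both unstimulated groups) and -0.19 at least. Such correlations cannot show whether same-numbered libraries were handled together, and the labels do not say. The replicate block alone called 0, 0, 23, 23 and 20 pore genes in the 5 comparisons, where the fit without it called 0, 0, 24, 24 and 20. Of all 16528 genes tested the block fit called 6 higher and 4 lower for KD with TNF-α, and 416 and 150 for TNF-α in control cells. It called 4859 and 4902 for KD without TNF-α, 5092 and 5117 for TNF-α in KD cells, and 3868 and 3577 for the interaction. Nothing is read from the pore gene counts of these last comparisons. Every pore gene had 161 or more reads a library, and how much of the spread between the 2 libraries of a group was counting error was not tested.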
